A study of Mus musculus with 7 samples.

Results

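The Fc gamma receptors of the mouse, their signalling chain and the related neonatal receptor were followed through 7 tumor RNA libraries, 1 per group. The 7 genes were chosen by name from the 21892 genes of the deposited table. They are the activating receptors Fcgr1, Fcgr3 and Fcgr4, the inhibitory receptor Fcgr2b, the shared chain Fcer1g, the kinase Syk and the neonatal receptor Fcgrt. All 7 had a mean of at least 1 TPM over the libraries, the level used to select 13998 genes for comparison. TPM is a gene's share of all transcripts, corrected for gene length and scaled to a fixed total, so levels of different genes can be set side by side.

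The tumors carried an Egfr exon 19 deletion, which makes lung adenocarcinoma sensitive to the EGFR kinase inhibitor gefitinib, and grew under the skin of C57BL/6 mice, through which they were passaged. The gefitinib groups had received the drug for 3 days or for 14 days. All 4 groups of day 21 had first had 14 days of gefitinib, followed by 7 days of DC101, 4H2, both antibodies, or vehicle. DC101 is an antibody to mouse VEGFR2, the main VEGF receptor of blood vessels, and the series title places 4H2 as the blockade of PD-1, an inhibitory receptor of T cells. A vehicle library of day 3 had no gefitinib. The treatment field records no treatment where the titles of the vehicle groups say vehicle. The sources used here do not give the isotypes of the antibodies, the number of animals behind a library or its sequencing depth. No library of vehicle at day 14, or of gefitinib continued to day 21, was used here, so day and drug cannot be told apart in the comparisons that cross days. With 1 library per group, no difference has a replicate check.

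Fc gamma receptors bind the constant part of IgG and so let macrophages, monocytes, neutrophils and NK cells respond to antibody-coated cells. The activating receptors pair with the FcR gamma chain encoded by Fcer1g, whose phosphorylated tail recruits the kinase Syk and starts phagocytosis and the oxidative burst. FcgammaRIIB, the product of Fcgr2b, carries an inhibitory tail that recruits the lipid phosphatase SHIP1 and damps the same cascade. FcRn, the product of Fcgrt, is related to MHC class I rather than to the other receptors. It pairs with beta-2 microglobulin and returns IgG and albumin from endosomes to the cell surface. In mouse macrophages interferon gamma is known to raise Fcgr1 and Fcgr4.

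Promoters are shown for the 4 receptor genes, of which Fcgr1 and Fcgr4 spanned the widest ranges over the libraries and Fcgr2b the narrowest. RefSeq windows on GRCm38.p6, from 250 bases before to 50 bases after a start, were held for all 7 genes. Capitals mark matches, on either strand, to the interferon gamma activated site (TTCNNNGAA), the interferon stimulated response element (GAAA, any 2 bases, then GAAA) and the PU.1 core (GAGGAA, read TTCCTC on the other strand). Fcgr3 has a second, overlapping window with the same PU.1 core match. The Fcgr3 windows start inside the span of the gene (chr1:171051169-171065915), unlike those of the other receptors, which lie at the gene's end. No window was held at the outer end of Fcgr3, so that stretch was not searched.
Fcgr1 promoter, chr3:96293920-96294219, minus strand: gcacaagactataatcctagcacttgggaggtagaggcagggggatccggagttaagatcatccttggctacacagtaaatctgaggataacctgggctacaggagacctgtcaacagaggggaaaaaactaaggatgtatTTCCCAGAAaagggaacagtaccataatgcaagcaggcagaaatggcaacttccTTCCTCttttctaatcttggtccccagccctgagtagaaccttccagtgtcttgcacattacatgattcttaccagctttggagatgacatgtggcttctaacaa
Fcgr4 promoter, chr1:171018676-171018975, plus strand: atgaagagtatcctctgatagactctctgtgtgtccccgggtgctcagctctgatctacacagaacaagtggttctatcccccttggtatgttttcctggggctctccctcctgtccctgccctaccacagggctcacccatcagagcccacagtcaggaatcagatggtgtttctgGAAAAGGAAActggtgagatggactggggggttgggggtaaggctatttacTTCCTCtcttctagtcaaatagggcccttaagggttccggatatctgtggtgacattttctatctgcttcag
Fcgr3 promoter, chr1:171059354-171059653, minus strand: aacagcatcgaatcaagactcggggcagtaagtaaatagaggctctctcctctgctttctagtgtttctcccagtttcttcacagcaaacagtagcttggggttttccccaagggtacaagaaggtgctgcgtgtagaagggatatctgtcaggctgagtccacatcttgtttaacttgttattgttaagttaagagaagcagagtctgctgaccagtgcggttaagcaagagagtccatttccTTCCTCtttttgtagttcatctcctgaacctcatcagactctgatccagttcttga
Fcgr2b promoter, chr1:170976022-170976321, minus strand: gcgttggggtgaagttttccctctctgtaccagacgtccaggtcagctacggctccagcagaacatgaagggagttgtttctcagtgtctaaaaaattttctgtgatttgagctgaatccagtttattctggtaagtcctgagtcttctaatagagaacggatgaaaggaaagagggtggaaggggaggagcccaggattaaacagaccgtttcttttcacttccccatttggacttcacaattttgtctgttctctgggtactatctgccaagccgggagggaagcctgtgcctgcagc
The Fcgr1 window held an interferon gamma activated site from 109 to 101 bases before the start and a PU.1 core from 55 to 50 bases before it. The Fcgr4 window held an interferon stimulated response element from 73 to 64 bases and a PU.1 core from 22 to 17 bases before the start. The Fcgr3 window held a PU.1 core from 6 bases to 1 base before the start, and the Fcgr2b window none of the 3 motifs. Among the windows not shown, those of Fcer1g and Fcgrt held none, and 1 of the 2 Syk windows held a PU.1 core. Fcer1g spanned 9.38-fold and Syk 7.71-fold over the libraries, against 5.76-fold for Fcgr3. A link between motifs and range was not tested. The matches did not overlap one another. Of 32851 promoter RefSeq windows of this length searched here, 8.30% held the first motif, 3.44% the second and 28.3% the third. A match describes the letters and does not show that a factor binds there.

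The genes Fcgr4 (chr1:171018926-171029761), Fcgr3 (chr1:171051169-171065915), Fcgr2b (chr1:170960558-170976071) and Fcer1g (chr1:171229572-171234349) lie close together on chromosome 1 (RefSeq, GRCm38.p6). Fcgr1 lies at chr3:96282909-96293969, Syk at chr13:52582610-52648792 and Fcgrt at chr7:45092993-45103822. The coding sequences of Fcgr3 and Fcgr2b were 87.3% identical over 735 aligned bases in GENCODE M21, against 64.6% to 68.1% for the other 5 pairs of the 4 receptors. Their longest common run covers coding bases 263 to 391 of Fcgr3 and 278 to 406 of Fcgr2b and is printed because a read from it fits both genes.
Run shared by Fcgr3 and Fcgr2b: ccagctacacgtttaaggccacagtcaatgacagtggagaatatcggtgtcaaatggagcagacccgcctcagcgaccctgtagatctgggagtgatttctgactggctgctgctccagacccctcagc
Of the windows of 50 bases in the Fcgr3 coding sequence, 22.1% also occurred in Fcgr2b transcripts, and 17.1% of those of Fcgr2b occurred in Fcgr3 transcripts. None was shared by any other pair. The sources used here do not say how the authors counted such reads, so the balance of Fcgr3 and Fcgr2b is uncertain in each library.

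The libraries differed widely in what tissue they held. The summed TPM of 16 macrophage and monocyte markers was 11028.3 and 11072.3 at day 3 and day 14 of gefitinib, against 1342.3 in the vehicle library of day 3. At day 21 it was 5026.2 with DC101, 10666.2 with 4H2 and 7930.7 with both, against 4869.5 with vehicle. Skeletal muscle markers summed to 72578.0 TPM with 4H2 and 70220.6 TPM with both antibodies, against 2731.4 TPM with vehicle at day 21, and 8 epithelial markers to 39.6 TPM with 4H2 and 319.6 TPM with both, against 6367.7 TPM with vehicle. With DC101 the muscle markers summed to 14938.2 TPM and the epithelial ones to 4082.7 TPM. The 2 libraries with 4H2 stand apart from the rest in both sums. Some differences of the receptor, chain and kinase genes that rest on them are also given rescaled to a fixed total without muscle and epithelial markers. This alternative was chosen after seeing the data. The comparison of both antibodies with 4H2 alone, and the pathway and marker lists, are given without this rescaling. In bulk RNA, fewer cells of a type and less RNA per cell cannot be told apart.

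Markers of other leukocytes that use Fc gamma receptors were at lower levels than the macrophage markers, summed over lists of different length. Conventional dendritic cell markers lay between 90.7 and 323.0 TPM. Neutrophil markers lay between 9.2 and 75.9 TPM in the 7 libraries, NK cell markers between 34.4 and 146.6 TPM, B cell markers between 16 and 111.9 TPM, and mast cell and basophil markers between 16.4 and 163.0 TPM. Ly6g, which defines mouse neutrophils, was listed at 0 in every library. Fcer1a and Ms4a2, the subunits that pair with the gamma chain in the high-affinity IgE receptor of mast cells, did not exceed 0.8 and 1.4 TPM. The 8 listed genes of the constant parts of the immunoglobulin heavy chains were not found under those names among the genes of the deposited table, so they were not analysed.

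Fcer1g had the highest level of the 7 genes in every library. It was at 1819.2 TPM on day 3 and 1741.6 TPM on day 14 of gefitinib, against 194.0 TPM in the vehicle library of day 3. At day 21 it was at 740.2 TPM with DC101, 1512.1 TPM with 4H2 and 918.3 TPM with both, against 827.3 TPM with vehicle. Both gefitinib libraries were thus above every other, and 4H2 was the highest of day 21. The gene ranked above 94.3% of the genes compared even in the library where it was lowest.

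The kinase gene Syk was at 112.5 and 109.1 TPM on day 3 and day 14 of gefitinib, against 14.6 TPM in the vehicle library of day 3. The day 21 libraries had 40.5 TPM with DC101, 96.6 TPM with 4H2 and 81.0 TPM with both, against 40.9 TPM with vehicle. The 2 libraries that had received 4H2 lay well above the other 2 of day 21. Syk amounted to between 4.94% and 8.82% of Fcer1g, lowest with vehicle at day 21 and highest with both antibodies.

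Among the activating receptors, Fcgr3, the low-affinity receptor of macrophages and NK cells, had the highest level in every library. It was at 401.4 and 335.0 TPM on day 3 and day 14 of gefitinib, against 69.7 TPM in the vehicle library of day 3. In the day 21 libraries Fcgr3 was at 136.2 TPM with DC101, 247.5 TPM with 4H2 and 180.6 TPM with both, against 188.4 TPM with vehicle. Its range over the libraries, 5.76-fold, was the narrowest of the 3.

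Fcgr4, which binds IgG2a and IgG2b with intermediate affinity, was at 243.3 and 273.7 TPM on day 3 and day 14 of gefitinib, against 10.2 TPM in the vehicle library of day 3. At day 21 Fcgr4 reached 72.1 TPM with DC101, 144.8 TPM with 4H2 and 156.9 TPM with both, against 115.5 TPM with vehicle. Its highest and lowest libraries differed 26.8-fold, the widest range of the 7 genes. It was also the only one of the 7 with a higher level at day 14 than at day 3 of gefitinib and, of the receptors, the only one with its highest day 21 level under both antibodies.

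Fcgr1, the high-affinity IgG receptor, was at 133.8 and 130 TPM on day 3 and day 14 of gefitinib, against 10 TPM in the vehicle library of day 3. Its day 21 levels were 44.7 TPM with DC101, 64.6 TPM with 4H2 and 52.3 TPM with both, against 55.7 TPM with vehicle. The 4 libraries of day 21 lay within a narrow band between the vehicle library of day 3 and the gefitinib libraries. Fcgr4 was 1.02-fold of Fcgr1 in the vehicle library of day 3 and 1.61-fold to 3.00-fold in the other 6, most with both antibodies.

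Fcgr2b was the receptor with the highest level in every library. It was at 586.0 and 507.4 TPM on day 3 and day 14 of gefitinib, against 141.9 TPM in the vehicle library of day 3. On day 21 Fcgr2b was at 215.2 TPM with DC101, 366.5 TPM with 4H2 and 237.4 TPM with both, against 325.0 TPM with vehicle. Unlike Fcer1g and Syk, it was lower with both antibodies than with vehicle. B cells also use this receptor, and the highest sum of B cell markers, 111.9 TPM, was in the library of both antibodies.

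Fcgrt varied least, over 3.17-fold. It was at 364.2 and 317.9 TPM on day 3 and day 14 of gefitinib, against 114.9 TPM in the vehicle library of day 3. At day 21 Fcgrt stood at 148.5 TPM with DC101, 206.1 TPM with 4H2 and 194.0 TPM with both, against 173.2 TPM with vehicle. Its partner B2m was at 7258.8 and 7688.3 TPM on day 3 and day 14 of gefitinib, against 1055.6 TPM in the vehicle library of day 3. At day 21 B2m was at 4680.0 TPM with DC101, 6008.1 TPM with 4H2 and 4160.4 TPM with both, against 5434.4 TPM with vehicle. The transcript of its cargo albumin, Alb, did not exceed 0.1 TPM in any library.

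**Figure D1:**
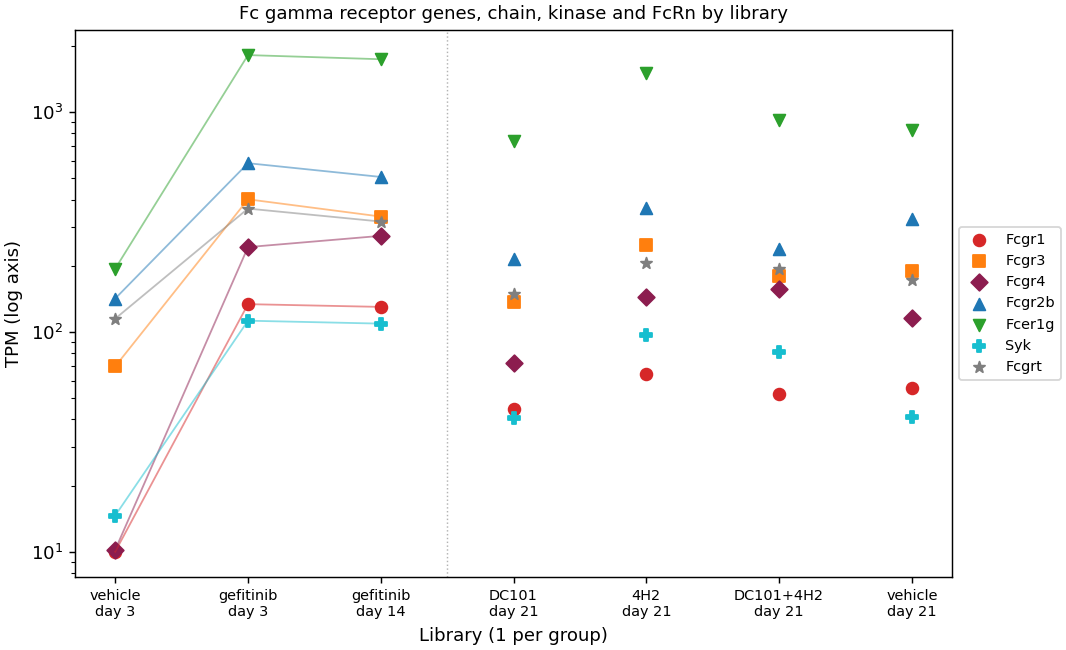
TPM (log axis) of the 7 genes in each library, 1 point per gene and library; lines join the vehicle library of day 3 and the gefitinib libraries, and the dotted line sets off day 21. Every gene was lowest in the vehicle library of day 3, and Fcgr4 ran from 10.2 to 273.7 TPM while Fcgrt ran from 114.9 to 364.2 TPM.

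The first comparison of these genes set the gefitinib library of day 3 against the vehicle library of the same day. All 7 were at least 2-fold higher in the gefitinib library than in the vehicle library of day 3, where 20.8% of all compared genes were at least 2-fold higher and 14.4% at least 2-fold lower. On the log2(TPM + 1) scale the differences were 4.45 for Fcgr4, 3.62 for Fcgr1, 3.22 for Fcer1g, 2.86 for Syk, 2.51 for Fcgr3, 2.04 for Fcgr2b and 1.66 for Fcgrt. Their median was 2.86, against -0.09 over all genes. The activating receptors thus differed more than the inhibitory one, and FcRn least. The macrophage list had a median difference of 2.79, with 15 of 16 markers at least 2-fold higher. Markers of other tissue were higher too, with medians of 3.04 for T cells (6 of 6 past 2-fold), 2.97 for fibroblasts (7 of 7), 2.83 for skeletal muscle (12 of 12) and 1.90 for endothelium (8 of 8). Epithelial markers had a median of -1.65, with 7 of 8 at least 2-fold lower. The part of these tissues in the receptor levels was not tested.

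At day 14 of gefitinib the picture against the same vehicle library was much alike, and the 2 comparisons share that library. All 7 genes were at least 2-fold higher, beside 22.7% of genes higher and 12.7% lower. The differences were 4.62 for Fcgr4, 3.57 for Fcgr1, 3.16 for Fcer1g, 2.82 for Syk, 2.25 for Fcgr3, 1.83 for Fcgr2b and 1.46 for Fcgrt, with a median of 2.82 against 0.03 over all genes. The marker medians were 4.66 for T cells, 2.89 for macrophages, 2.54 for fibroblasts and 3.67 for skeletal muscle, and -0.86 for epithelium. Of the endothelial markers, 6 of 8 were at least 2-fold higher. Between day 14 and day 3 of gefitinib none of the 7 differed 2-fold, where 4.93% of genes were higher and 2.73% lower at day 14. These differences ran from -0.26 for Fcgr3 to 0.17 for Fcgr4.

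After 7 days without gefitinib, the vehicle library of day 21 had lower levels of all 7 genes than day 14 of gefitinib. Syk differed by -1.39, Fcgr4 by -1.24, Fcgr1 by -1.21 and Fcer1g by -1.07, all at least 2-fold lower. Fcgrt at -0.87, Fcgr3 at -0.83 and Fcgr2b at -0.64 did not reach 2-fold. The median was -1.07 against -0.01 over all genes, of which 7.89% were at least 2-fold lower and 7.62% higher. The macrophage list had a median of -1.15, with 10 of 16 markers at least 2-fold lower, and the 8 epithelial markers a median of 1.85.

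The levels did not return to those of the vehicle library of day 3. Against it, the vehicle library of day 21 was at least 2-fold higher for 6 of the 7 genes, beside 15.3% of genes higher and 3.11% lower. Fcgr4 differed by 3.38, Fcgr1 by 2.37, Fcer1g by 2.09, Syk by 1.43, Fcgr3 by 1.42 and Fcgr2b by 1.19. Fcgrt, at 0.59, was the one below 2-fold. The same order of receptors, Fcgr4 and Fcgr1 ahead of Fcgr3 and Fcgr2b, was seen in each comparison with the vehicle library of day 3, which they share.

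**Figure D2:**
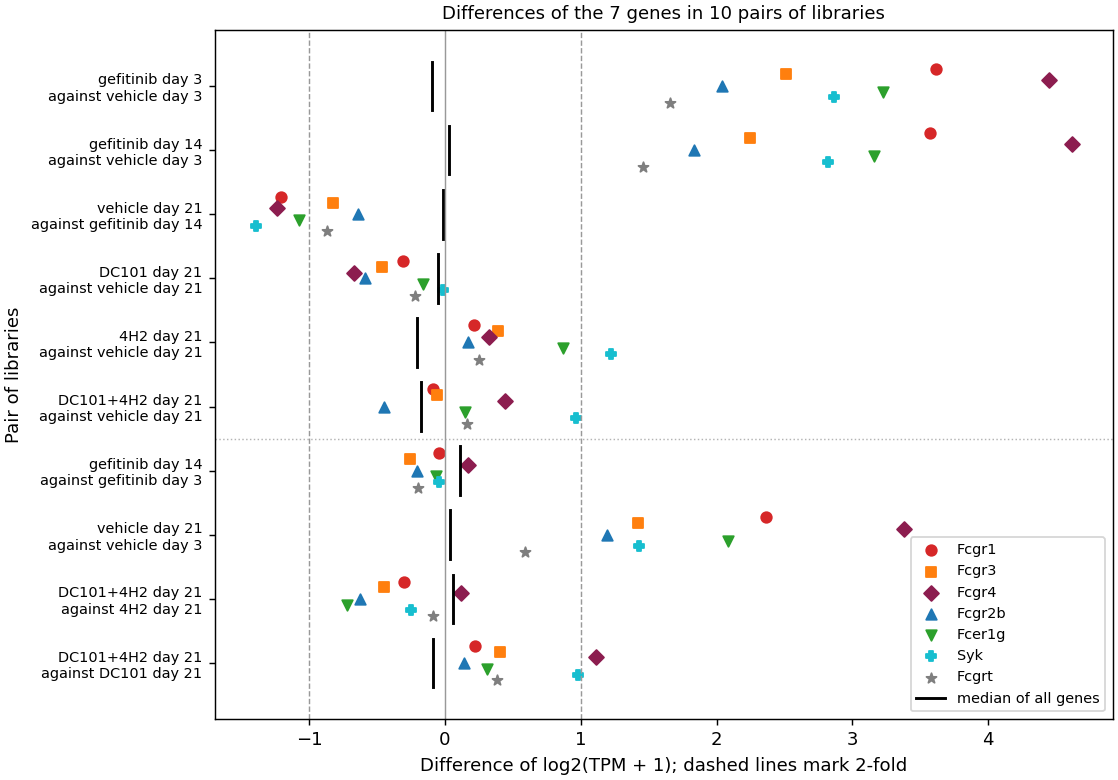
Difference of log2(TPM + 1) of the 7 genes in 10 pairs of libraries, with the first-named library over the second; short black lines mark the median of all compared genes and dashed lines 2-fold. In the 2 pairs of gefitinib against vehicle at day 3 all 7 genes lie between 1.46 and 4.62. In the 3 pairs of an antibody group against vehicle at day 21, only Syk with 4H2, at 1.22, lies past 2-fold.

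The DC101 library was set against the vehicle library of day 21, both after 14 days of gefitinib. No member reached 2-fold, where 3.12% of genes were at least 2-fold higher and 1.11% lower. Fcgr4 differed by -0.67, Fcgr2b by -0.59, Fcgr3 by -0.47, Fcgr1 by -0.31, Fcgrt by -0.22 and Fcer1g by -0.16. Syk, at -0.01, had the same level in both libraries, and its sign turned to 0.03 under median-of-ratios scaling. The 4 Fc gamma receptors were thus below vehicle, at 0.624 to 0.803 of its TPM. The macrophage markers were mixed, with a median difference of 0.00, 2 of 16 at least 2-fold higher and Csf1r at -0.25. Leukocyte markers had a median of -0.16. All 12 skeletal muscle markers were at least 2-fold higher with DC101, with a median of 2.54, and their part in the result was not tested. Endothelial markers summed to 197.8 TPM with DC101, 191.6 TPM with 4H2 and 199.6 TPM with both, against 269.6 TPM with vehicle.

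With 4H2, Syk was 2.36-fold higher than with vehicle (log2 difference 1.22) and was the only member past 2-fold, where 10.9% of genes were higher and 20% lower. Fcer1g differed by 0.87, Fcgr3 by 0.39, Fcgr4 by 0.32, Fcgrt by 0.25, Fcgr1 by 0.21 and Fcgr2b by 0.17. The median was 0.32 against -0.21 over all genes. The chain and the kinase thus lay further above vehicle than the receptors did. Rescaled without the muscle and epithelial markers, Syk differed by 1.31, Fcer1g by 0.96 and the 5 receptors by 0.27 to 0.49. Median-of-ratios scaling moved the median of all genes by 0.23 and took Fcer1g to 1.12, past 2-fold. It also moved the split of all genes past 2-fold to 2095 higher and 2189 lower, against 1528 higher and 2797 lower as deposited. The macrophage markers had a median of 0.82, and their part in the result was not tested.

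With both antibodies the members went different ways, none by 2-fold, where 11.7% of genes were higher and 17% lower than with vehicle. Syk differed by 0.97, Fcgr4 by 0.44, Fcgrt by 0.16 and Fcer1g by 0.15, against -0.06 for Fcgr3, -0.09 for Fcgr1 and -0.45 for Fcgr2b. Without the muscle and epithelial markers Syk passed 2-fold at 1.06, Fcgr2b was at -0.36, and Fcgr3 and Fcgr1 turned to 0.03 and 0.00. Under median-of-ratios scaling, which moved the median of all genes by 0.22, Syk was at 1.21, Fcgr3 at 0.18, Fcgr1 at 0.15 and Fcgr2b at -0.21. All genes past 2-fold then split into 2124 higher and 1767 lower, against 1638 and 2373 as deposited. Under each of these scalings Fcgr2b was below vehicle, and Fcgr4, Syk, Fcgrt and Fcer1g were above it.

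Set against 4H2 alone, the library of both antibodies had lower levels of 6 members, none by 2-fold, beside 4.94% of genes higher and 0.464% lower. Fcer1g differed by -0.72, Fcgr2b by -0.62 and Fcgr3 by -0.45, while Fcgr4 was at 0.12. Set against DC101 alone, it had higher levels of all 7, with Fcgr4 at 1.11 past 2-fold, beside 11.1% of genes higher and 14.3% lower. Syk differed by 0.98 and Fcgr2b by 0.14. Without the muscle and epithelial markers Syk was at 1.06 in that pair. Median-of-ratios scaling, which moved the median of all genes by 0.18 there, took Syk to 1.18 and split the genes past 2-fold into 2020 higher and 1591 lower, against 1555 and 1996 as deposited. The comparisons of the antibody groups share libraries with one another and are not independent.

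The balance of activating to inhibitory receptor RNA was followed as the summed TPM of Fcgr1, Fcgr3 and Fcgr4 over that of Fcgr2b. This ratio is untouched by any rescaling of a library. It was 1.33 on day 3 and 1.46 on day 14 of gefitinib, against 0.634 in the vehicle library of day 3. At day 21 it was 1.18 with DC101, 1.25 with 4H2 and 1.64 with both, against 1.11 with vehicle. The vehicle library of day 3 was the only one with more inhibitory than activating RNA, and the library of both antibodies had the highest ratio.

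As log2 differences the ratio was higher by 1.07 on day 3 and by 1.20 on day 14 of gefitinib than in the vehicle library of day 3, both past 2-fold. With vehicle at day 21 it differed from day 14 of gefitinib by -0.40. At day 21 it differed from vehicle by 0.57 with both antibodies, 0.17 with 4H2 and 0.09 with DC101. Between both antibodies and 4H2 alone it differed by 0.40, and between both and DC101 alone by 0.48. With Fcgr3 alone in the numerator, the receptor whose reads can be confused with Fcgr2b, the gefitinib differences were 0.48 and 0.43, short of 2-fold. With Fcgr1 and Fcgr4 alone they were 2.18 and 2.48.

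Fcgr4 made up 17.8% and 22.0% of the RNA of the 4 receptors on day 3 and day 14 of gefitinib, against 4.40% in the vehicle library of day 3. At day 21 its share was 15.4% with DC101, 17.6% with 4H2 and 25.0% with both, against 16.9% with vehicle. Fcgr2b had 42.9% and 40.7% on day 3 and day 14 of gefitinib, against 61.2% in the vehicle library of day 3. At day 21 it had 46.0% with DC101, 44.5% with 4H2 and 37.9% with both, against 47.5% with vehicle. Fcgr3 kept between 26.9% and 30.1% in all 7 libraries, and Fcgr1 had between 4.31% and 10.4%. The share of Fcgr2b was thus lower, and those of Fcgr4 and Fcgr1 higher, in the other 6 libraries than in the vehicle library of day 3.

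**Figure D3:**
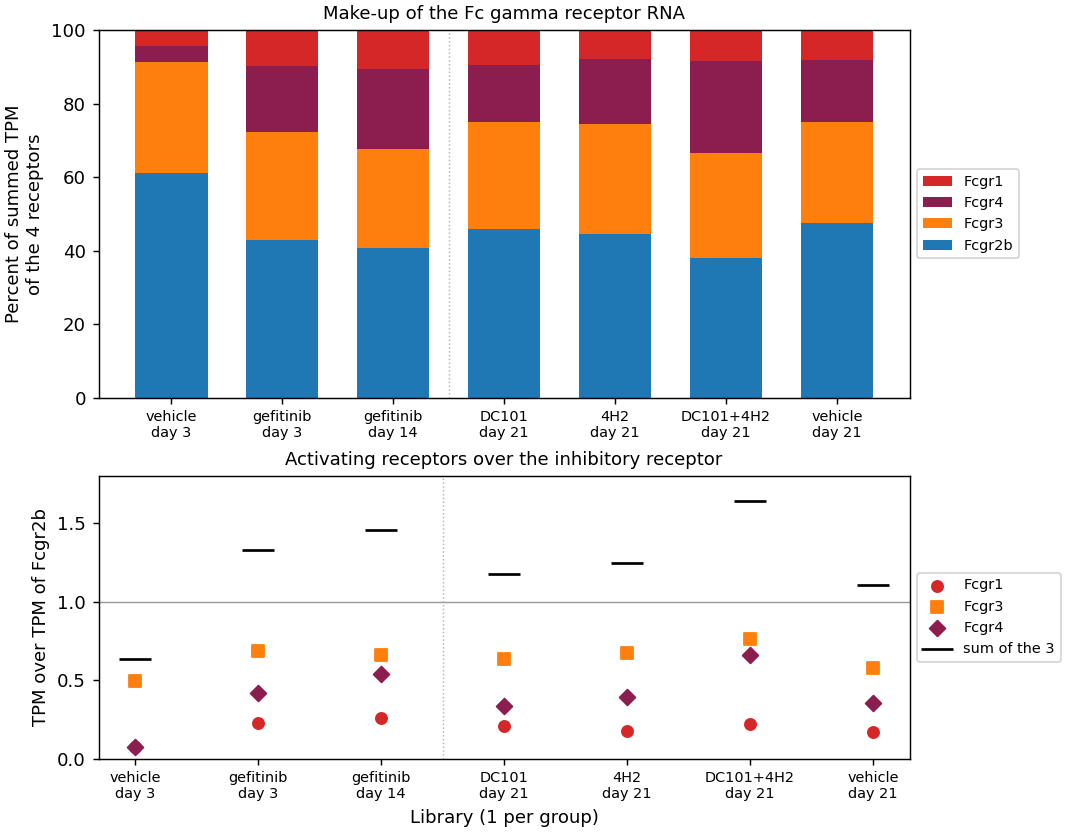
Above, percent of the summed TPM of the 4 receptors held by each receptor; below, TPM of each activating receptor (points) and of their sum (bars) over the TPM of Fcgr2b, in each library. The sum lies below 1 in the vehicle library of day 3 (0.634) and between 1.11 and 1.64 in the other 6, and Fcgr4 holds 4.40% to 25.0% of the total.

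To set the members beside the cells that express them, each was divided by macrophage markers, none of which is a member. Per Csf1r, the receptor for the growth factor of macrophages, Fcgr4 was at 43.9% and 41.1% on day 3 and day 14 of gefitinib, against 11.9% in the vehicle library of day 3. Per Csf1r at day 21 it was at 28.1% with DC101, 35.9% with 4H2 and 53.8% with both, against 37.8% with vehicle. Fcgr1 per Csf1r was at 24.1% and 19.5% on day 3 and day 14 of gefitinib, against 11.7% in the vehicle library of day 3. Fcgr4 and Fcgr1 were thus higher under gefitinib also beside Csf1r. Per Adgre1, the gene of the macrophage antigen F4/80, Fcgr4 was at 63.1% on day 3 and 74.6% on day 14 of gefitinib, against 32.7% with vehicle at day 3. Fcgr4 per Adgre1 at day 21 was at 60.2% with DC101, 57.0% with 4H2 and 80.3% with both, against 100% with vehicle. With both antibodies Fcgr4 was thus above vehicle per Csf1r and below vehicle per Adgre1. Fcgr1 per Adgre1 was at 34.7% on day 3 and 35.4% on day 14 of gefitinib, against 32.1% with vehicle at day 3, so its difference depended on the marker.

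Fcgr2b and Fcgrt went the other way beside the same marker. Fcgr2b per Csf1r was at 106% and 76.2% on day 3 and day 14 of gefitinib, against 165% in the vehicle library of day 3. Fcgrt per Csf1r was at 65.7% on day 3 and 47.7% on day 14 of gefitinib, against 134% with vehicle at day 3. Fcgr3 was at 72.4% on day 3 and 50.3% on day 14 of gefitinib, against 81.2% with vehicle at day 3. At day 21 Fcgrt per Csf1r was at 57.8% with DC101, 51.0% with 4H2 and 66.6% with both, against 56.6% with vehicle. Per Adgre1 these values were 124% with DC101, 81.1% with 4H2 and 99.2% with both, against 150% with vehicle. The direction of Fcgrt with DC101 and with both antibodies thus depended on the marker. FcRn is also made by endothelium and epithelium, whose part in the level was not tested.

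How far a member kept step with the macrophage markers depended on the marker. Over the 7 libraries the highest and lowest values of Fcer1g and Syk per summed markers differed by 1.47-fold and 1.35-fold, against 2.00-fold for Fcgr1, 2.28-fold for Fcgr3, 3.25-fold for Fcgr4, 3.53-fold for Fcgr2b and 4.43-fold for Fcgrt. Per Csf1r, Fcgr3 spanned 1.61-fold, Fcer1g 1.66-fold, Fcgr1 2.07-fold, Syk 2.08-fold, Fcgr2b 2.17-fold, Fcgrt 2.81-fold and Fcgr4 4.53-fold. The lysozyme gene Lyz2 held most of the summed TPM of the list, with 7571.3 TPM with 4H2 against 2953.1 TPM with vehicle at day 21. With 4H2 the choice of marker changed the size of the Fcgr4 difference at day 21 and not its direction. Fcgr4 was at 1.36% of the summed markers with 4H2, against 2.37% with vehicle. Without Lyz2 in the sum it was at 4.68% with 4H2 and 6.03% with vehicle, and per Csf1r at 35.9% and 37.8%. With both antibodies the direction depended on the marker. Fcgr4 was then at 1.98% of the summed markers, below vehicle, and at 53.8% per Csf1r, above vehicle.

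**Figure D4:**
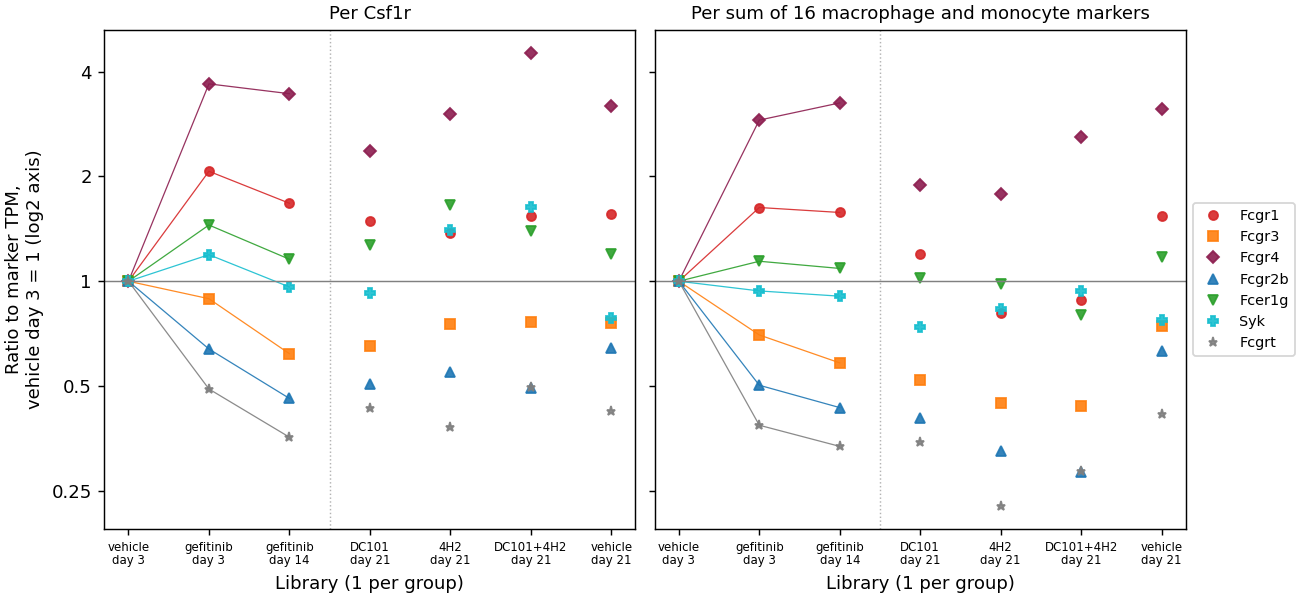
TPM of each gene over Csf1r (left) or over the sum of 16 macrophage and monocyte markers (right), as a ratio to the vehicle library of day 3 on a log2 axis, for each library. Fcgr4 lies above 1 and Fcgr2b, Fcgr3 and Fcgrt below 1 in the 6 other libraries in both panels, and on the right Fcer1g and Syk span 1.47-fold and 1.35-fold over the libraries.

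Genes whose profiles over the 7 libraries were most like each member were sought among 9414 protein-coding genes with a mean of at least 10 TPM. Likeness was the root mean square difference of centred log2(TPM + 1). The 3 nearest to Fcgr1 were Ms4a7 (0.11), Tmem86a (0.14) and Pld4 (0.18), and to Fcgr3 Colec12 (0.11), Trpv2 (0.12) and Adcy3 (0.13). Fcgr4 had no neighbour as close on this unscaled measure, with Mpeg1 at 0.23, Ifit3 at 0.24 and Psme2b at 0.25. Its median difference from all genes was also the largest of the members, at 1.53, so its neighbours are not read as unusually distant. The nearest to Fcgr2b were Colec12 (0.13), Slc23a2 (0.15) and Gpr35 (0.17), with Fcgr3 at place 9 (0.18).

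Fcer1g lay nearest to Lrrc25 (0.09), Hsd17b11 (0.10) and C1qc (0.11). Syk lay nearest to Pik3cd (0.08), Amdhd2 (0.10) and Was (0.11). Fcgrt lay nearest to Synj1 (0.10), Bmp2k (0.11) and Prcp (0.11). Median differences over all 9414 genes ran from 0.68 for Fcgrt to 1.53 for Fcgr4. The profiles share the library scaling, so likeness is a description of these 7 libraries.

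Downstream of the receptors, 22 genes of the proximal activating cascade were followed. In each gefitinib library 18 were at least 2-fold higher than in the vehicle library of day 3, and none lower. Over all compared genes 20.8% were higher and 14.4% lower at day 3, and 22.7% higher and 12.7% lower at day 14. These shares, and those given below for the other comparisons, apply to the counts of the later lists too. Lat, the adapter of lymphocytes and some myeloid cells, was at 26.0 and 66.4 TPM on day 3 and day 14 of gefitinib, against 1.1 TPM with vehicle at day 3. Lcp2, which encodes the adapter SLP-76, was at 95.7 TPM on day 3 and 103.5 TPM on day 14 of gefitinib, against 9.4 TPM with vehicle at day 3. Lyn, the Src family kinase that phosphorylates the receptor tails, was at 259.4 TPM on day 3 and 229.2 TPM on day 14 of gefitinib, against 31.7 TPM with vehicle at day 3. The median of the list was 2.40 and 2.62, near that of the 7 members.

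With vehicle at day 21, 11 of the 22 were at least 2-fold lower than at day 14 of gefitinib, among them Pik3cd, a lipid kinase subunit of leukocytes, at 46.1 TPM with vehicle against 119.9 TPM on gefitinib. Lat, at 24.8 TPM with vehicle at day 21, and Lcp2, at 40.2 TPM, were lower as well. Of all compared genes 7.89% were lower and 7.62% higher in that comparison. Against vehicle at day 21, none of the 22 passed 2-fold with DC101, 5 were higher with 4H2, and 3 were higher and 2 lower with both antibodies. Of all genes 3.12% were higher and 1.11% lower with DC101, 10.9% and 20% with 4H2, and 11.7% and 17% with both. The few genes past 2-fold with both antibodies are not read as a shift of the list. Lat was at 18.4 TPM with DC101, 90.4 TPM with 4H2 and 57.8 TPM with both, against 24.8 TPM with vehicle. Lcp2 was at 92.4 TPM with 4H2 and 87.6 TPM with both, against 40.2 TPM with vehicle. Fyn, a kinase with a main role in T cells, was at 68.8 TPM with 4H2 and 74.6 TPM with both, against 32.0 TPM with vehicle. T cell markers summed to 469.4 TPM with 4H2 and 370.6 TPM with both, against 205.4 TPM with vehicle, and their part in the result was not tested. The 2 lower genes were Malt1, at 17.4 TPM with both antibodies against 40.1 TPM with vehicle, and Src, at 51.9 TPM with both against 110.2 TPM with vehicle.

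The list of 10 genes of the inhibitory cascade had lower medians under gefitinib than the activating list. Of the 10, 6 were at least 2-fold higher at day 3 and 8 at day 14, with medians of 1.16 and 1.25. Each list was mixed. At day 3 the inhibitory genes ran from -0.52 to 2.67 for Inpp5d, with Dok2 at 2.08 and Ptpn6 at 2.07. The activating genes ran from -0.81 for Src to 3.68 for Lat. What set the lower medians was not tested. Inpp5d, which encodes SHIP1, was at 153.2 and 178.2 TPM on day 3 and day 14, against 23.2 TPM in the vehicle library of day 3. Ptpn6, which encodes the phosphatase SHP-1, was at 263.2 TPM on day 3 and 250.6 TPM on day 14 of gefitinib, against 62.1 TPM with vehicle at day 3. With vehicle at day 21 these 2 were the genes at least 2-fold lower than at day 14 of gefitinib, at 79.3 and 123.6 TPM. Against vehicle at day 21, Dok2, an adapter that restrains Ras signalling, was the one gene past 2-fold, at 46.6 TPM with 4H2 against 21.3 TPM with vehicle.

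Of 14 genes of the phagocytic cup and its actin, 11 were at least 2-fold higher at day 3 and 9 at day 14 of gefitinib than in the vehicle library of day 3. Was, which drives actin branching in blood cells, was at 107.1 TPM on day 3 and 98.6 TPM on day 14 of gefitinib, against 13.7 TPM with vehicle at day 3. Dock2, an activator of Rac, was at 105.3 TPM on day 3 and 126.5 TPM on day 14 of gefitinib, against 14.9 TPM with vehicle at day 3. With vehicle at day 21, 4 of the 14 were lower than at day 14 of gefitinib. Against vehicle at day 21, none passed 2-fold with DC101. With 4H2, 4 were higher, among them Was, at 101.3 TPM with 4H2 against 43.0 TPM with vehicle, and Dock2, at 124.1 TPM with 4H2 against 55.6 TPM with vehicle. With both antibodies Gsn, which severs actin filaments and is abundant in muscle, was at 548.3 TPM, against 229.6 TPM with vehicle. Vasp, an actin regulator, was lower, at 252.8 TPM with both antibodies against 615.8 TPM with vehicle.

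All 6 genes of the phagocyte oxidase were at least 2-fold higher in each gefitinib library than in the vehicle library of day 3. Cybb, the catalytic subunit, was at 268.3 and 276.9 TPM on day 3 and day 14, against 18.2 TPM with vehicle at day 3. At day 21 Cybb was at 125.6 TPM with DC101, 293.1 TPM with 4H2 and 191.9 TPM with both, against 129.5 TPM with vehicle. Ncf1, a cytosolic subunit, was at 160.2 TPM with 4H2, against 72.8 TPM with vehicle, and these 2 genes were the ones past 2-fold with 4H2. Cyba, Ncf4 and Rac2 did not pass 2-fold in any antibody comparison.

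**Figure D5:**
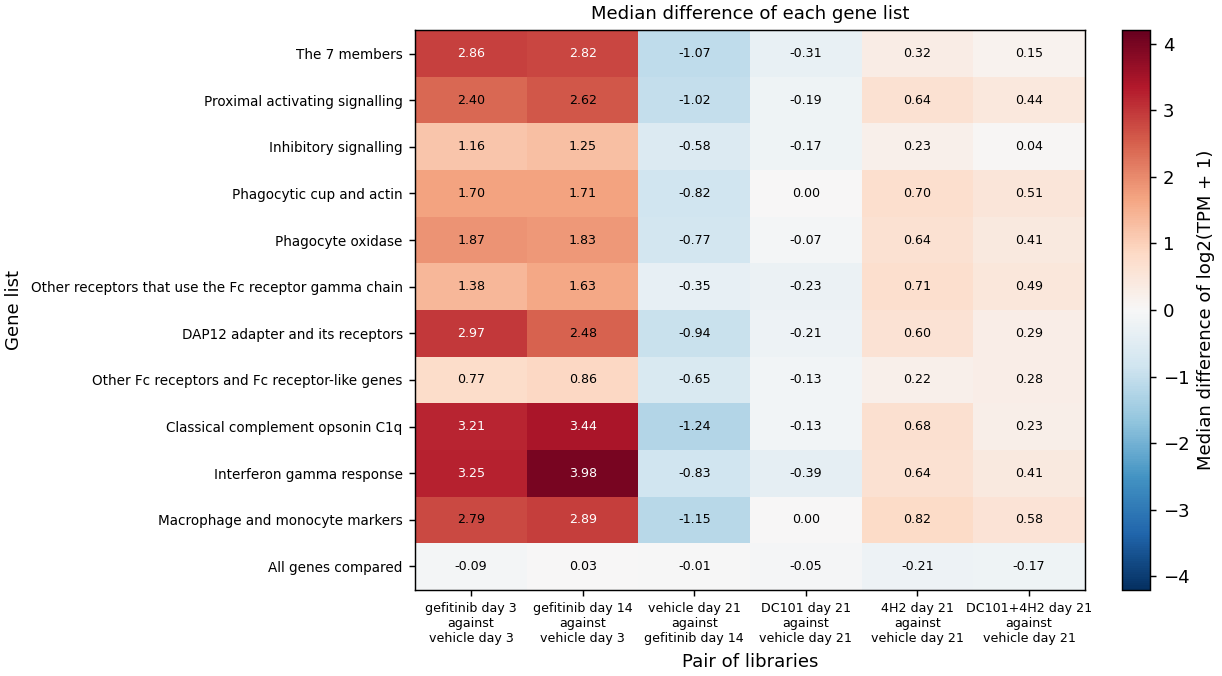
Median difference of log2(TPM + 1) of the 7 genes, of 9 pathway lists, of the macrophage markers and of all 13998 compared genes in 6 pairs of libraries, with the first-named library over the second. The medians of the lists run from 0.77 to 3.98 under gefitinib and from 0.22 to 0.82 with 4H2, where all genes have -0.21.

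Of 10 genes listed as other receptors that borrow the gamma chain, 6 passed the filter. Of these, 5 were at least 2-fold higher at day 3 and 4 at day 14 of gefitinib. Clec4n, which encodes the fungal receptor Dectin-2, had the highest level of the list and was at 44.5 TPM with both antibodies, against 112.5 TPM with vehicle. Clec4d, a related lectin receptor, was at 21.1 TPM with 4H2 and 16.6 TPM with both, against 5.5 TPM with vehicle. Clec4e, which encodes the lectin receptor Mincle and was named after its values were seen, was at 7.8 TPM with 4H2 and 7.2 TPM with both, against 1.1 TPM with vehicle. With both antibodies 2 genes of the list were thus higher and 1 lower.

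Tyrobp encodes DAP12, a chain of the same kind that serves other receptors of myeloid and NK cells. It was at 1444.1 and 1022.3 TPM on day 3 and day 14 of gefitinib, against 183.0 TPM in the vehicle library of day 3. At day 21 Tyrobp was at 449.0 TPM with DC101, 806.0 TPM with 4H2 and 643.7 TPM with both, against 533.2 TPM with vehicle. Fcer1g exceeded Tyrobp in every library, by 1.06-fold in the vehicle library of day 3 and by 1.26-fold to 1.88-fold in the other 6. Of the DAP12 list, 7 of 9 genes passed the filter and all 7 were at least 2-fold higher in both gefitinib libraries.

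Among 11 other Fc receptors and Fc receptor-like genes, 9 passed the filter. Of these 3 were higher and 1 lower at day 3 of gefitinib, and 4 higher and 1 lower at day 14. Fcrls, a mouse scavenger receptor-like gene of macrophages and microglia, was at 154.8 TPM on day 3 but 42.4 TPM on day 14 of gefitinib, against 26.4 TPM in the vehicle library of day 3. Fcrla, a gene of B cells, was at 19.5 TPM on day 14 of gefitinib and 15.0 TPM with both antibodies. Trim21, the cytosolic Fc receptor, was at 37.8 and 46.0 TPM on day 3 and day 14 of gefitinib, against 14.2 TPM in the vehicle library of day 3.

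The 3 genes of C1q, which binds IgG on coated cells and starts the classical complement pathway, were all at least 2-fold higher in both gefitinib libraries. C1qa was at 3508.1 and 4330.2 TPM on day 3 and day 14, against 423.8 TPM in the vehicle library of day 3. With vehicle at day 21 all 3 were at least 2-fold lower than at day 14 of gefitinib, C1qa at 2067.1 TPM. None of the 3 passed 2-fold in the antibody comparisons.

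Of 15 genes of the interferon gamma response, 14 were at least 2-fold higher in each gefitinib library than in the vehicle library of day 3, with medians of 3.25 and 3.98. Cxcl9, a chemokine for T cells, was at 299.0 and 511.9 TPM on day 3 and day 14, against 11.8 TPM with vehicle at day 3. With vehicle at day 21 it was at 111.8 TPM, and 5 of the 15 were at least 2-fold lower than at day 14 of gefitinib. Against vehicle at day 21, 6 of the 15 were higher with 4H2 and 3 with both antibodies, and none with DC101. Nos2, which makes nitric oxide in activated macrophages, was at 106.0 TPM with 4H2 and 70.8 TPM with both, against 9.7 TPM with vehicle. Fcgr1 and Fcgr4 passed 2-fold in each gefitinib comparison with vehicle at day 3 and in none of the antibody comparisons with vehicle at day 21. The part of interferon gamma in their levels was not tested.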

How the data were processed

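The authors deposited 1 table of TPM values, rounded to 1 decimal, with 21892 genes and 7 libraries of total RNA from frozen tumors, made after depletion of ribosomal RNA with a directional kit, per the labels' protocols. Per the submitters' processing notes, the genome build was GRCm38.p6. The sources used here do not give the aligner, the counter, the annotation or the handling of shared reads. TPM keeps no depth, so no counting interval can be given, and an exact 0 is reported as listed at 0.

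Differences were taken on the log2(TPM + 1) scale over 13998 genes that averaged at least 1 TPM, which understates the change of low genes, and 2-fold was the threshold. With 1 library per group no test was made. The members, the 28 gene lists and the comparisons were chosen with earlier results of these data known, and no direction that such results already showed counts as independent support. Named genes were the members, all genes of lists of up to 8 genes, up to 3 genes with the largest rise and 3 with the largest fall past 2-fold of longer lists at 10 TPM or more, and the 3 genes most like each member. Some genes under this rule are not reported here. Markers are given as sums, and Lyz2, Ly6g, Adgre1, Clec4e, Fcer1a, Ms4a2 and Tyrobp were named after their values were seen. Promoters are RefSeq's and coding sequences those of GENCODE M21. Python 3.11.15 with pandas 2.3.3 was used, and the scripts were checked on simulated data. Alternatives were a pseudocount of 0.1 or 5, a filter at 5 TPM or none, a 1.5-fold threshold, median-of-ratios scaling over 7340 genes, rescaling without 212 abundant or technical genes, other numerators of the receptor ratio and other macrophage denominators. Rescaling without muscle and epithelial markers and division by leukocyte markers were added after seeing the data.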

Additional observations from a re-analysis of the deposited data

How the results depend on the processing

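No paired analysis was possible because each group has 1 library. No member changed its direction past 2-fold under any alternative run. At a threshold of 1.5-fold, 7 members were past it with vehicle at day 21 against day 14 of gefitinib, 2 each with DC101, with 4H2, with both antibodies against 4H2 and with both against DC101, and 1 with both against vehicle. Median-of-ratios scaling gave 2 members with 4H2, 1 with both antibodies and 2 with both against DC101, and rescaling without muscle and epithelial markers gave 1 with both antibodies and 2 with both against DC101. The activating to inhibitory ratio with Fcgr3 alone differed by 0.48 and 0.43 on day 3 and day 14 of gefitinib from vehicle at day 3, and by -0.053 between day 14 and day 3. For vehicle at day 21 against vehicle at day 3 the geometric mean of the 3 receptors gave 1.28, and Fcgr1 with Fcgr4 alone 1.89, both past 2-fold, where the sum gave 0.80. The numbers of all genes past 2-fold moved more: with a pseudocount of 5 the genes higher and lower on day 3 of gefitinib were 1924 and 1343 (2914 and 2018 with a pseudocount of 1) and those higher on day 14 were 2073 (3179). Vehicle at day 21 then had 674 higher and 538 lower than day 14 of gefitinib (1066 and 1105), and 1196 higher and 233 lower than vehicle at day 3 (2140 and 435). DC101 had 203 and 51 (437 and 156), 4H2 had 1012 higher (1528), day 14 against day 3 of gefitinib 253 and 182 (690 and 382), both antibodies against 4H2 283 and 19 (692 and 65), and both against DC101 917 higher (1555). With a pseudocount of 0.1, DC101 had 659 and 298, day 14 against day 3 of gefitinib 1059 higher, and both against 4H2 1155 and 151. A filter at 5 TPM left 93 lower with DC101, 450 and 247 between day 14 and day 3 of gefitinib, and 27 lower with both against 4H2. A threshold of 1.5-fold gave 341 to 4604 genes, with 863 higher and 666 lower with DC101 and 3406 higher and 1401 lower with vehicle at day 21 against vehicle at day 3. Under other macrophage denominators 169 of 210 differences of a member per marker kept their direction and their side of 2-fold, 26 changed sign, 8 passed 2-fold and 7 no longer did. The read sharing of Fcgr3 and Fcgr2b and the unknown depth limit the ratios.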
